A study of Mus musculus with 11 samples.

Results

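The genes described here are 40 replication and mitosis genes, listed by symbol: 14 that act in S phase, 23 that act in G2 and M phase, and 3 transcription regulators of both. Of the 40, 38 were found among the 28284 genes of the count table (12 S phase genes, 23 G2 and M phase genes, and 3 regulators), and Gins2 and Cdt1 were not analysed here. The genes were listed by name, without a threshold on a measured value. The question was how much RNA of dividing cells each library held, and whether S phase and M phase genes gave the same answer. PolyA RNA was measured in 11 OvTrpMyc mouse cell lines from 7 mice, 1 library for each line. The titles name 7 lines ROV or LOV, 2 uterus, 1 a splenic tumor, and 1 a peritoneal tumor. ROV and LOV stand for right and left ovary in the study, and these are called ovary lines here. The study names fallopian tubes beside ovaries in its dissection, and whether the ovary lines hold oviduct cells was not tested. Libraries 1 to 7 are F364 ROV, F326 splenic tumor, F364 LOV, F326 ROV, F361 peritoneal tumor, F319 ROV, and F318 ROV, in that order, library 8 is F339 ROV, library 9 is F318 LOV, library 10 is F319 uterus, and library 11 is F333 uterus. Every line has the same genotype label, Ovgp1-Trp53-R270H-Myc: mutant p53 and MYC, driven by the promoter of Ovgp1, a gene of the oviduct epithelium, and inserted at Trp53. The mice were heterozygous and were taken at criteria for euthanasia. The study describes F361 as not expressing the mutant p53 copy, and cultured tumor cells as having lost the wild-type allele, neither of which was analysed here. All lines were grown ex vivo without treatment and were labelled as actively dividing, and the table holds neither a normal tissue nor a control line. A line is 1 culture from 1 mouse, so the differences below rest on the spread between cultures.

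Cells that divide copy their DNA in S phase and separate it in M phase, and each phase has its own RNAs. The MCM helicase opens DNA at origins, PCNA clamps the polymerase to it, and ribonucleotide reductase and thymidylate synthase make its building blocks. In G2 and M phase, cyclins A and B drive CDK1, the Aurora and Polo kinases and the kinesins build and work the spindle, and CDC20 and UBE2C help the anaphase-promoting complex end mitosis. E2F factors switch on many S phase genes, and MYBL2 and FOXM1 switch on many G2 and M phase genes. Resting and differentiated cells hold little of these RNAs, so in a bulk library a low level can mean fewer dividing cells or less RNA in each, and these cannot be told apart.

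Counts per library ranged from 13580525 to 27044598, and 3 counts, the floor used for detection, were worth 0.111 to 0.221 CPM (counts scaled to a library total of 1000000). Libraries 1 to 7 stood apart from 8 to 11 in genes that are not of the cell cycle. Adult skeletal muscle fiber genes (38 of 39 listed were in the table, and 35 to 38 had more than 3 counts) took 8.92% to 16.6% of counts in libraries 1 to 7 and 0.253% to 1.48% in 8 to 11. Macrophage and blood markers (8 of 8 in the table) summed to 54.0 to 124 CPM against 8.47 to 19.2 CPM, and 4 Y-linked genes to 128 to 174 CPM against 1.75 to 19.2 CPM. Epithelial markers (10 of 10 in the table, 5 to 10 of them with more than 3 counts) had a summed level between 9.43 and 241 CPM among libraries 1 to 7 and between 11.4 and 44.7 CPM among 8 to 11. Epcam reached at most 2.12 CPM in any library, Krt8 and Pax8 at most 0.663 and 0.259 CPM outside F319 ROV (52.7 and 3.04 CPM), and Ovgp1 lay at 0.8293 to 6.52 CPM. Others were higher in some lines: Krt18 had 39.9 CPM in F364 ROV and 67.9 CPM in F319 ROV, Krt7 16.6 and 40.5 CPM in the F319 and F333 uterus lines, and Krt19 17.2 CPM in F318 LOV and 21.7 CPM in F319 ROV. Wt1, which mesothelium also expresses, was highest in F319 ROV at 72.7 CPM, with 67.2 CPM in F326 ROV and 65.6 CPM in F364 ROV. Ovary and uterus are organs of female mice, so Y-linked RNA goes against the labels of the ovary lines in libraries 1 to 7 and, at its lower level, of the ovary and uterus lines in 8 to 11. The tumor lines held the most, 173.8 CPM in the F326 splenic tumor line, from the mouse of F326 ROV, and 169.8 CPM in F361. The S and M phase levels below are therefore those of the libraries as labelled, and how much of their RNA came from the named line was not tested. The comparison within libraries 8 to 11 uses none of libraries 1 to 7. The part of the epithelial and blood markers and Y-linked genes in the results below was not tested, and the differences between library ranges and the median changes of the fits are also given without muscle fiber genes. That step removes the listed fiber genes only, and other RNA that muscle would bring was not taken out. Both uterus lines fell in libraries 8 to 11 and both tumor lines in 1 to 7, so library number and origin are partly the same contrast.

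The 38 genes together took 0.0243% of counts in F361 (95% Wilson interval 0.0235 to 0.0251), the lowest of the 11 lines, and 0.585% in F318 LOV (0.582 to 0.588), the highest. The other libraries of 1 to 7 had 0.0376% in the F326 splenic tumor line, 0.0771% in F326 ROV, 0.132% in F364 LOV, 0.134% in F364 ROV, 0.136% in F319 ROV, and 0.183% in F318 ROV. Libraries 8 to 11 lay close together, with 0.5263% in F339 ROV, 0.534% in the F319 uterus line, and 0.512% in the F333 uterus line besides F318 LOV. No library of 1 to 7 reached the lowest of 8 to 11. The intervals cover counting error only.

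For each library an S level and an M level were taken, the mean of log2(CPM + 1) over the 12 S phase and the 23 G2 and M phase genes. In libraries 1 to 7 the S level was 5.13, 3.58, 5.18, 4.22, 2.96, 5.10, and 5.48, and in libraries 8 to 11 it was 6.98, 7.12, 7.16, and 6.89. The M level was 4.78, 2.82, 4.80, 3.98, 2.04, 4.82, and 5.38 in libraries 1 to 7 and 6.92, 7.02, 6.90, and 6.79 in libraries 8 to 11. Both levels were lowest in F361, next in the F326 splenic tumor line, and next in F326 ROV, and the 4 libraries 8 to 11 held the 4 highest values of each. The mean S level was 4.52 ± 0.95 (SD, n = 7) in libraries 1 to 7 and 7.04 ± 0.12 (SD, n = 4) in libraries 8 to 11, a difference of 2.52. The mean M level was 4.09 ± 1.23 (SD, n = 7) and 6.91 ± 0.09 (SD, n = 4), a difference of 2.82. With muscle fiber genes left out of the library totals the differences were 2.32 for the S level and 2.63 for the M level. These are descriptions without a test. The genes were chosen with results of these data known, which also holds for the tests of single genes below.

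S phase and M phase genes gave a similar order of libraries but not the same spread. The S level minus the M level was 0.36, 0.76, 0.38, 0.25, 0.92, 0.27, and 0.10 in libraries 1 to 7 and 0.06, 0.10, 0.26, and 0.10 in libraries 8 to 11. It was highest in F361 and the F326 splenic tumor line, the libraries with the least RNA of these genes. Means were 0.43 ± 0.30 (SD, n = 7) and 0.13 ± 0.09 (SD, n = 4), a difference of -0.31 with ranges that overlapped. It was -0.31 as well without muscle fiber genes. The size of this difference depended on how it was taken: -0.54 with the log2 of summed CPM, -0.61 with other S and M phase genes in place of the 38, -0.18 with the median over genes, -0.19 with ovary lines only, and -0.15 without both F326 lines and F361. The use of other genes and the last choice were made after the data were seen. As summed CPM, the S phase genes came to 1.31 times the G2 and M phase genes in F361 and 1.17 times in the F326 splenic tumor line, 0.599 to 0.839 times in the other libraries of 1 to 7, and 0.528 to 0.621 times in libraries 8 to 11. From F361 to F318 ROV, the level of S phase genes was higher by a median factor of 8.01 (2.50 to 20.9) and that of G2 and M phase genes by a median factor of 18.1 (3.31 to 96.7). Between lines of 1 mouse in different library ranges, the factors for S and M phase genes lay close: medians of 3.22 for S and 3.29 for M from F318 ROV to F318 LOV, and 4.18 and 4.07 from F319 ROV to the F319 uterus line.

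**Figure D1:**
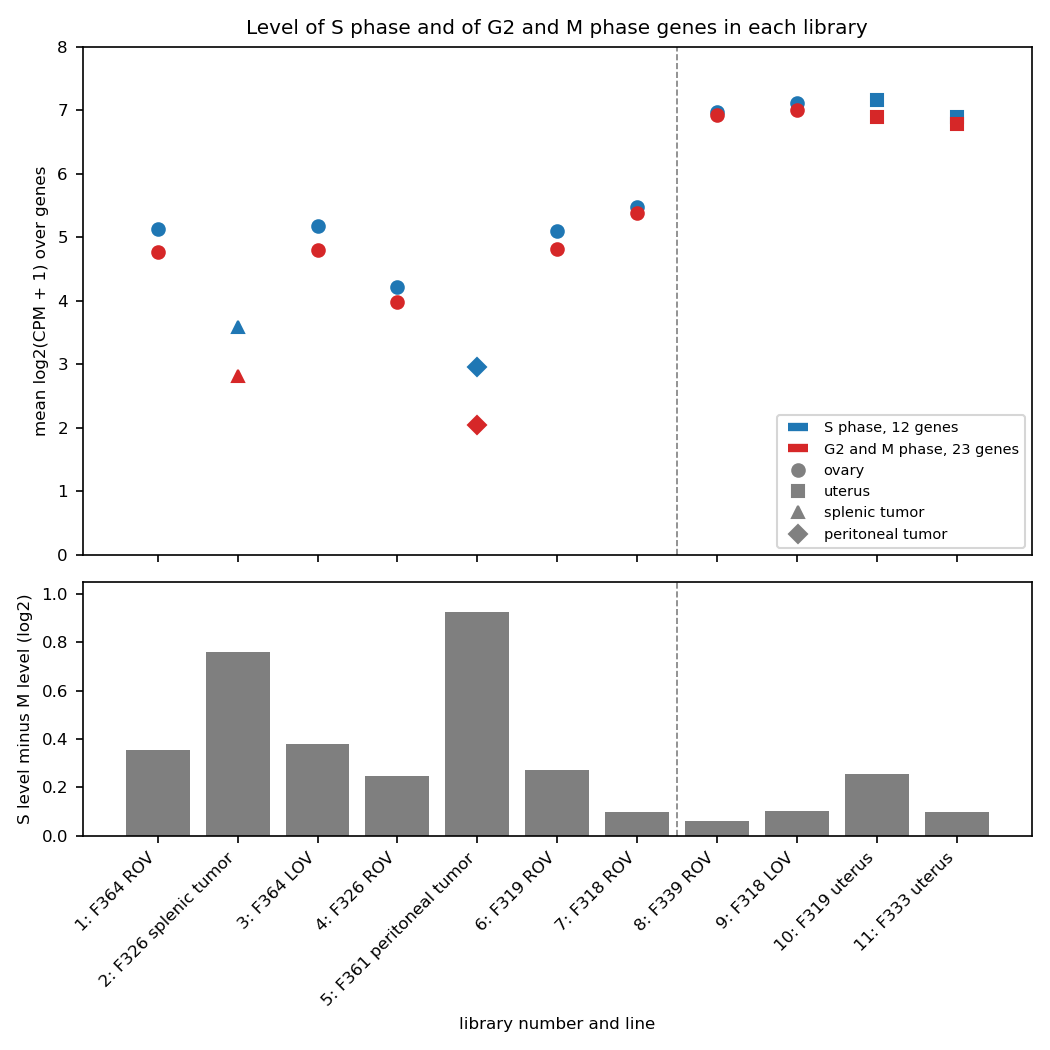
S level (blue) and M level (red), each the mean log2(CPM + 1) over its genes, by library (top), and the S level minus the M level (bottom, bars from 0). Symbols give the labelled origin and the dashed line separates libraries 1 to 7 from 8 to 11. All 4 libraries to the right lie above all 7 to the left in both levels, and the bars are highest in F361 (0.92) and the F326 splenic tumor line (0.76).

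The promoters of these genes carry different short sequences, which the list did not use. RefSeq promoters (GRCm38.p6, 250 bases before to 50 after the transcription start, 300 in all) were given for 32 of the 38 genes, and were searched on both strands for the CHR element (TTTGAA), the CCAAT box (CCAAT), and the E2F site (TTTCCCGC, TTTGGCGC, TTTCGCGC, or TTTGCCGC). The CHR, which the DREAM and MYBL2 complexes are known to bind, was in 14 of 19 promoters of G2 and M phase genes (73.7%), 2 of 11 of S phase genes (18.2%, Mcm2 and Cdc45), and 20.2% of 27025 genes. E2F sites were in 5 of 11 promoters of S phase genes (45.5%, Mcm3, Mcm5, Mcm6, Mcm7, and Cdc6), 1 of 19 of G2 and M phase genes (5.26%, Cdk1), and 2.605% of all genes. CCAAT boxes were in 16 of 19 and 9 of 11, against 41.1% of all genes. The RefSeq windows of E2f1 and Mybl2 held none of the 3. That of E2f1 (chr2:154569377-154569676, minus strand) lies inside the gene as annotated by GENCODE (chr2:154559407-154569892). The sequence before the GENCODE start of E2f1 was therefore not searched, and sites there would be missed. Among genes outside the list, the CHR was in 32 of 48 other G2 and M phase promoters and 7 of 34 other S phase promoters, and E2F sites in 6 of 48 and 12 of 34. A match is a run of letters, not evidence of binding.

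**Figure D2:**
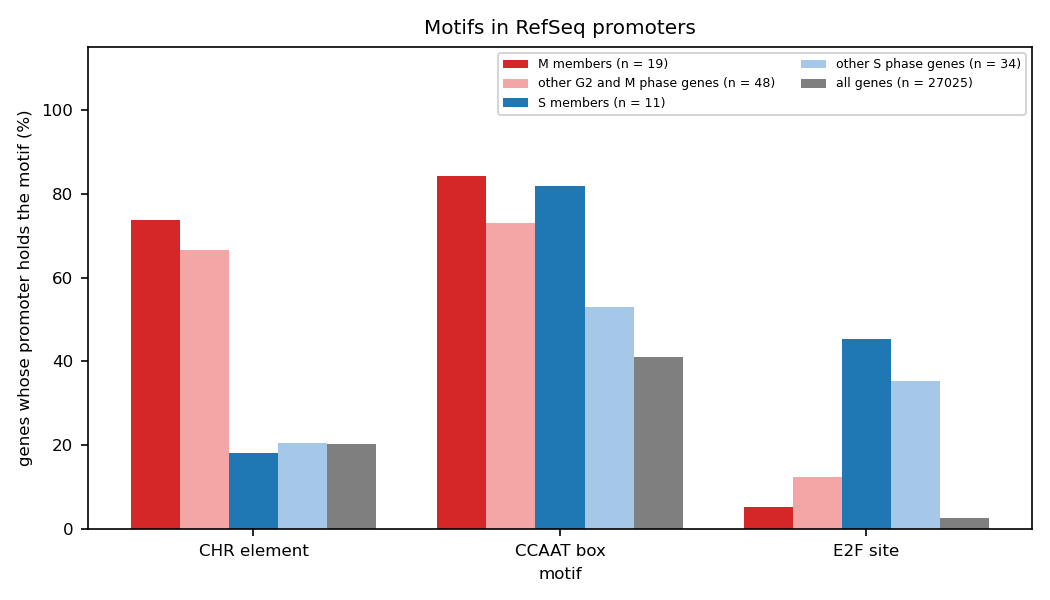
Percent of genes with a RefSeq promoter of 300 bases that holds each motif, for the G2 and M phase genes described here (n = 19), other G2 and M phase genes (n = 48), S phase genes described here (n = 11), other S phase genes (n = 34), and all genes (n = 27025). The CHR bar is highest for the G2 and M phase genes (73.7%) and the E2F bar for the S phase genes (45.5%).

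Promoters of 3 G2 and M phase genes and 3 S phase genes show how the sites are placed, with CHR elements, CCAAT boxes, and E2F sites of either strand in capitals and the transcription start after the first 250 bases. Cdc20 (chr4:118437294-118437593, minus strand) has 1 CHR starting 18 bases before the start and CCAAT boxes from 53 and 8 bases before it. Plk1 (chr7:122159185-122159484, plus strand) has its CHR 30 bases after the start and a CCAAT box from 14 bases before it. Cdk1 (chr10:69352863-69353162, minus strand) is, of the 19 G2 and M phase genes described here whose promoter was searched, the single one with both a CHR, from 71 and 15 bases before the start, and an E2F site, from 131 bases before it. In these promoters a CHR and a CCAAT box lie near the start. Mcm6 (chr1:128359656-128359955, minus strand) has E2F sites from 110, 106, and 47 bases before the start, the first 2 of them overlapping. Mcm5 (chr8:75109259-75109558, plus strand) has 2 overlapping E2F sites from 153 and 149 bases before the start. Mcm3 (chr1:20820263-20820562, minus strand) has both its E2F sites after the start, from 19 and 38 bases, and 3 CCAAT boxes before it. None of the 3 MCM promoters holds a CHR.
Cdc20: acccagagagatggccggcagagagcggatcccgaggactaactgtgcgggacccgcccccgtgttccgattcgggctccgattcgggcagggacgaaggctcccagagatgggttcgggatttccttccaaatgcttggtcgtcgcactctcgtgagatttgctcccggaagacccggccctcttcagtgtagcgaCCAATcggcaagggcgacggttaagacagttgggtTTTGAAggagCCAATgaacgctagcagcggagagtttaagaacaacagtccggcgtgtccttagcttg
Plk1: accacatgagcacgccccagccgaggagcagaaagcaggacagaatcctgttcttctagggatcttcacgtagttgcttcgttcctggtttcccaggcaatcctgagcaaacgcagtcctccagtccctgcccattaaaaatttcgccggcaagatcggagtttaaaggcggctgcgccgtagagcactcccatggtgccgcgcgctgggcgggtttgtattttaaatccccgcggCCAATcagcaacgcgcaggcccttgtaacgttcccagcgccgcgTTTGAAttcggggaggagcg
Cdk1: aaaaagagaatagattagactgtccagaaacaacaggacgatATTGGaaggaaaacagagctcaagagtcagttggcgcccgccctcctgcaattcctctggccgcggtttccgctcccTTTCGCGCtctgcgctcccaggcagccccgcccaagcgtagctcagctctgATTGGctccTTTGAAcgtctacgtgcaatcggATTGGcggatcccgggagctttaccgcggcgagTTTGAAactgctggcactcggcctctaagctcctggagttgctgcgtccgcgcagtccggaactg
Mcm6: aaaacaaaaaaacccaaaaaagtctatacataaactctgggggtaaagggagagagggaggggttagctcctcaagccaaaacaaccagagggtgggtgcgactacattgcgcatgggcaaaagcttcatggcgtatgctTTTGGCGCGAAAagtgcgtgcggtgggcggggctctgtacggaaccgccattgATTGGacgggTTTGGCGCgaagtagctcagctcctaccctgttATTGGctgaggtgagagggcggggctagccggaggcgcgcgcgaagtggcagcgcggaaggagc
Mcm5: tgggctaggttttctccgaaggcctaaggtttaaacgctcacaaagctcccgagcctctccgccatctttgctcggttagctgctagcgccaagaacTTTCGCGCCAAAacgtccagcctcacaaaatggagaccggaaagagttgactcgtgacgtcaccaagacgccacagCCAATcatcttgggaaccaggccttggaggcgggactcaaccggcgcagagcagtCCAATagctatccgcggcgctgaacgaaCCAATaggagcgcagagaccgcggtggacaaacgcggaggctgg
Mcm3: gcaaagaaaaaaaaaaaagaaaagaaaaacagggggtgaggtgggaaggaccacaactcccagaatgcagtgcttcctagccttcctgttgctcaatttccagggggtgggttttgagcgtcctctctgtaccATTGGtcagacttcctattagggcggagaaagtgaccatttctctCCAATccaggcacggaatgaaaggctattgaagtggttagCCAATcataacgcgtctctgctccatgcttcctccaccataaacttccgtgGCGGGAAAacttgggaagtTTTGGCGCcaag

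All 38 genes passed the filter on low counts and were higher in libraries 8 to 11 than in libraries 1 to 7 (edgeR's quasi-likelihood test, adjusted p under 0.05), where 28.6% of the 15954 genes tested were called higher. Their log2 changes ran from 1.12 (Rrm1) to 3.41 (Rrm2), with a median of 2.04 over the 12 S phase genes, 2.20 over the 23 G2 and M phase genes, and 1.83 over the 3 regulators, against 0.03 over all genes tested. For each of the 38 genes the lowest of libraries 8 to 11 lay above the highest of libraries 1 to 7, which held for 26.1% of all genes tested. Over all genes 4568 were called higher and 4769 lower, and with library totals in place of TMM scaling (the trimmed mean scaling of edgeR) 6080 and 3734, with the median of all genes at 0.40 and that of the 38 genes at 2.44. Among genes of these pathways outside the list, 39 of 43 other S phase genes and 57 of 60 other G2 and M phase genes were called higher and none lower. Of those, Pole2, a polymerase subunit, had a log2 change of 3.04, the cyclin gene Ccne1 3.03, and the spindle gene Hmmr 2.79, and the lowest values, none of them called, were -1.16 for Pttg1, -0.79 for Ung, and -0.43 for Zwint.

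In libraries 1 to 7 the highest value of a gene was a median of 12.6 times its lowest (2.50 to 96.7), and in libraries 8 to 11 a median of 1.51 times (1.14 to 2.70). F361 was the lowest of all lines in 33 of the 38 genes and the F326 splenic tumor line in the other 5, and F318 ROV was the highest of libraries 1 to 7 in 31 of 38. In libraries 8 to 11 the highest line was F318 LOV for 18 genes, F319 uterus for 10, F339 ROV for 6, and F333 uterus for 4.

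From 4 of the mice there were 2 lines each. F318 LOV (library 9) was higher than F318 ROV (library 7) in 38 of 38 genes, with a median log2 difference of 1.67, and F319 uterus (library 10) was higher than F319 ROV (library 6) in 38 of 38, with a median of 1.97. Where both lines of a mouse were in libraries 1 to 7, F326 ROV was higher than the F326 splenic tumor line in 36 of 38, with a median of 0.996, and F364 LOV was higher than F364 ROV in 19 of 38, with a median of -0.01. How many of all genes were higher within each pair was not counted. With the mouse as a block in the fit, where the contrast rests on F318 and F319 alone, 20 of the 38 genes remained called higher (9 of 12 S phase genes, 10 of 23 G2 and M phase genes, and 1 of 3 regulators), 35 had an unadjusted p under 0.05, and the median log2 change was 1.59, against 869 genes called higher of 15954 (5.45%). The 18 genes that lost the call, with adjusted p from 0.0554 to 0.331, were Mcm2, Mcm5, Rrm1, Mki67, Ccna2, Ccnb2, Aurka, Plk1, Kif11, Kif20a, Kif23, Cenpf, Cenpa, Nuf2, Birc5, Ube2c, E2f1, and Mybl2. The cause of the lower count was not tested.

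**Figure D3:**
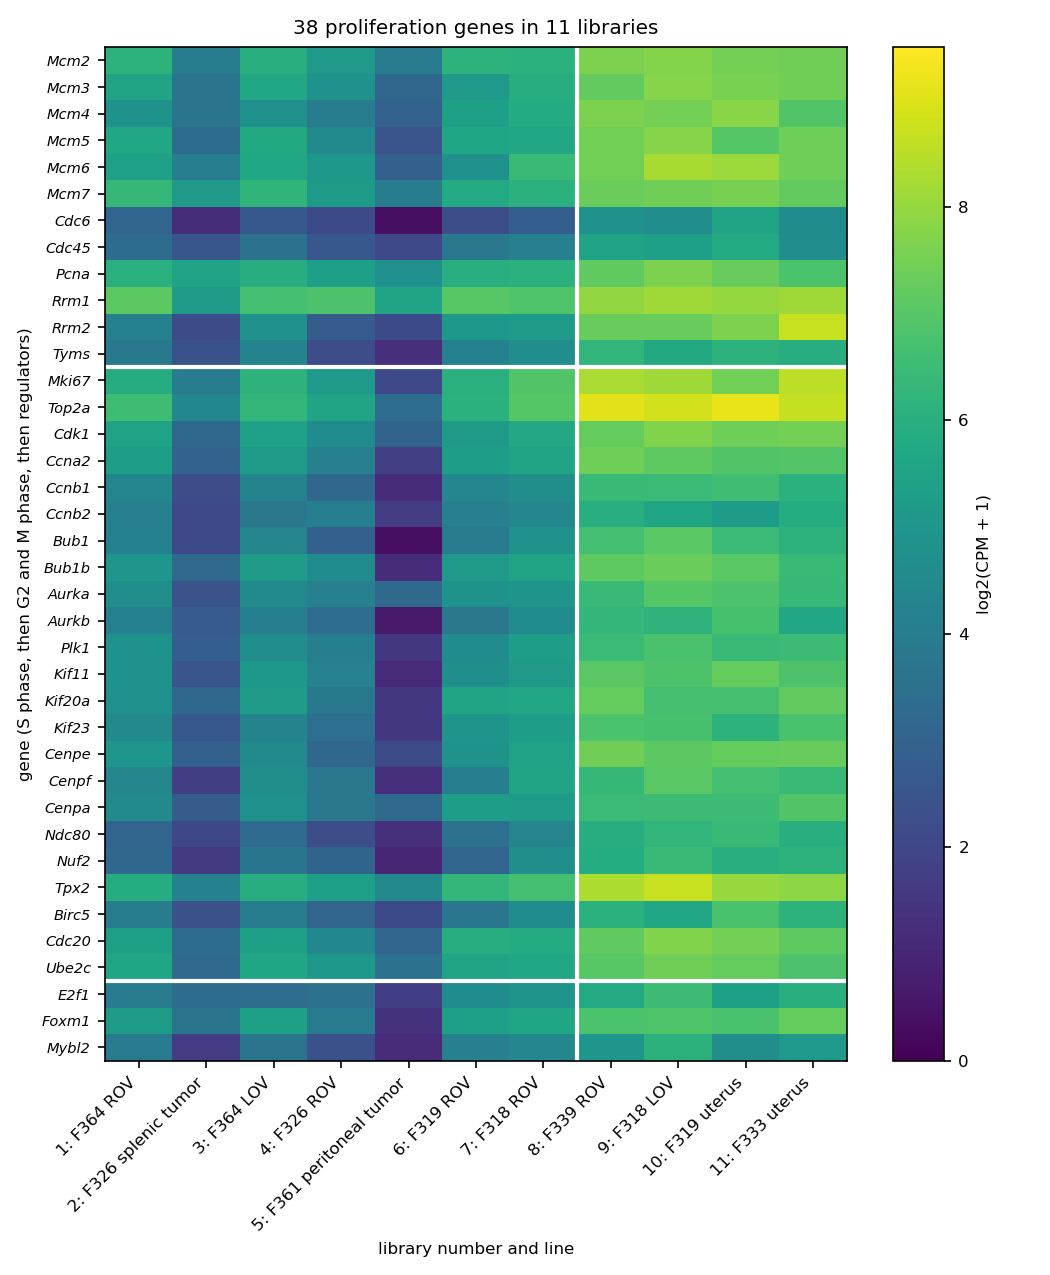
log2(CPM + 1) of the 38 genes (rows: S phase, G2 and M phase, and regulators, separated by white lines) in the 11 libraries (columns, libraries 1 to 7 to the left of the white line). The columns of F361 and the F326 splenic tumor line are the darkest, and the 4 columns to the right are the brightest.

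Levels of the single genes are given in CPM, in library order, with the log2 change of libraries 8 to 11 against 1 to 7 (± its standard error, from TMM-scaled counts) and the adjusted p of edgeR's quasi-likelihood test. The MCM genes encode 6 subunits of the replicative helicase. Mcm2 stood at 69.8, 15.4, 63.3, 34.52, 14.1, 70.4, and 65.5 CPM in the first 7 libraries and at 197, 211, 183, and 175 CPM in the last 4. The values of libraries 1 to 7 did not reach the lowest of 8 to 11, and the change was 1.66 ± 0.40 (adjusted p = 0.00381). The level of Mcm3 was 45.8, 11.52, 50.7, 27.4, 7.73, 33.7, and 59.5 CPM in libraries 1 to 7 and 149, 218, 191, and 171 CPM in 8 to 11. For Mcm4, libraries 1 to 7 gave 27.5, 12.02, 27.0, 15.5, 6.85, 40.7, and 57.1 CPM and libraries 8 to 11 gave 196, 184, 223, and 119.6 CPM. Library 4, F326 ROV, lay between the tumor lines and the other ovary lines for both, and the changes were 2.09 ± 0.43 (adjusted p = 0.00156) for Mcm3 and 2.44 ± 0.41 (adjusted p = 0.000475) for Mcm4. Mcm5 had 51.5, 9.37, 53.9, 21.8, 4.71, 48.8, and 49.1 CPM in libraries 1 to 7 and 178, 216, 126, and 168 CPM in libraries 8 to 11. Mcm6 stood at 41.9, 15.9, 49.5, 32.4, 6.48, 26.1, and 84.3 CPM in the first 7 libraries and at 178, 306, 271, and 169.8 CPM in the last 4. F318 LOV had the most of both and F361 the least, with changes of 1.99 ± 0.52 (adjusted p = 0.00637) and 2.32 ± 0.47 (adjusted p = 0.00141). The level of Mcm7 was 80.1, 33.6, 74.3, 35.6, 14.8, 55.5, and 66.8 CPM in libraries 1 to 7 and 159, 172, 186, and 148 CPM in 8 to 11. Mcm7 (chr5:138164583-138172422, minus strand) changed least of the 6, by 1.33 ± 0.35 (adjusted p = 0.00621), and 7.25% of its exon length is shared with Ap4m1 on the other strand.

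CDC6 loads the helicase and CDC45 is part of its active form. For Cdc6, libraries 1 to 7 gave 7.48, 1.39, 5.19, 3.41, 0.295, 3.85, and 6.17 CPM and libraries 8 to 11 gave 28.6, 24.4, 46.1, and 23.8 CPM. Cdc6 (chr11:98907801-98923940, plus strand) had 4 counts in F361, and its highest value, in F319 uterus, was 156 times that level. Its change was 2.59 ± 0.55 (adjusted p = 0.00195). Cdc45 had 9.19, 4.87, 10.8, 4.94, 3.24, 13.0, and 16.6 CPM in libraries 1 to 7 and 42.97, 40.6, 54.9, and 24.2 CPM in libraries 8 to 11. Cdc45 rose by less, 1.84 ± 0.36 (adjusted p = 0.00122), and the F333 uterus line with 24.2 CPM was the closest of 8 to 11 to the others. Pcna stood at 64.2, 43.1, 60.1, 39.9, 26.2, 61.7, and 65.6 CPM in the first 7 libraries and at 143, 198, 154, and 112 CPM in the last 4. Pcna (chr2:132249162-132253314, minus strand), the clamp, had the narrowest range of the 38 genes, 7.55-fold over the 11 lines, and a change of 1.19 ± 0.23 (adjusted p = 0.00103). Its pseudogene Pcna-ps2 took 9.20 to 79.3 CPM, up to 42.2% of the level of Pcna, so reads may be split between them, and the ranges of the 2 library sets did not overlap for their sum either (35.4 to 85.6 CPM against 150.4 to 277 CPM).

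Rrm1 and Rrm2 encode the large and small subunits of ribonucleotide reductase, and Tyms thymidylate synthase. The level of Rrm1 was 137, 34.9, 99.6, 114, 45.3, 129, and 118 CPM in libraries 1 to 7 and 249, 285, 253, and 281 CPM in 8 to 11. Rrm1 (chr7:102441695-102469771, plus strand) was lowest in the F326 splenic tumor line rather than in F361, and changed least of the 38 genes, by 1.12 ± 0.32 (adjusted p = 0.00970). For Rrm2, libraries 1 to 7 gave 16.9, 3.54, 28.4, 5.74, 3.39, 32.3, and 35.1 CPM and libraries 8 to 11 gave 154, 158, 195, and 416 CPM. Rrm2 (chr12:24708241-24714146, plus strand) changed most, by 3.41 ± 0.63 (adjusted p = 0.000824), and the F333 uterus line had 2.70 times the lowest of libraries 8 to 11. Tyms had 13.4, 4.30, 18.4, 3.74, 1.40, 16.8, and 25.1 CPM in libraries 1 to 7 and 76.1, 54.2, 70.0, and 59.6 CPM in libraries 8 to 11. Its change was 2.13 ± 0.56 (adjusted p = 0.00625), with F361 and F326 ROV lowest. The subunits of 1 enzyme thus lay at the 2 ends of the range of changes.

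Mki67 encodes the proliferation marker Ki-67 and Top2a topoisomerase II alpha. Mki67 stood at 58.6, 15.2, 69.9, 33.9, 3.24, 64.7, and 122 CPM in the first 7 libraries and at 309.9, 283, 177, and 375 CPM in the last 4. F361 lay far below the other lines and F333 uterus was the highest, with a change of 2.16 ± 0.61 (adjusted p = 0.00988). The level of Top2a was 92.6, 20.4, 77.6, 45.9, 9.499, 65.8, and 127 CPM in libraries 1 to 7 and 531, 458, 574, and 409 CPM in 8 to 11. It had the highest CPM of the 38 genes in each of libraries 8, 9, and 10, and its change was 2.64 ± 0.49 (adjusted p = 0.000837). For Cdk1, libraries 1 to 7 gave 43.3, 8.10, 42.3, 23.6, 7.36, 35.6, and 51.8 CPM and libraries 8 to 11 gave 151, 209, 166, and 179.6 CPM. CDK1, the mitotic kinase, changed by 2.21 ± 0.45 (adjusted p = 0.00136), and the tumor lines were the lowest. Ccna2 had 38.4, 6.83, 34.7, 16.8, 2.50, 39.0, and 45.3 CPM in libraries 1 to 7 and 167, 141, 120.0, and 123 CPM in libraries 8 to 11. Ccnb1 stood at 19.7, 3.80, 18.0, 8.01, 1.33, 20.3, and 24.8 CPM in the first 7 libraries and at 84.8, 87.2, 96.2, and 65.5 CPM in the last 4. The level of Ccnb2 was 16.6, 3.29, 12.7, 16.0, 2.21, 16.7, and 20.2 CPM in libraries 1 to 7 and 62.5, 47.1, 36.8, and 57.3 CPM in 8 to 11. These cyclins changed by 2.06 ± 0.55 (adjusted p = 0.00693) for Ccna2, 2.27 ± 0.54 (adjusted p = 0.00383) for Ccnb1, and 1.70 ± 0.47 (adjusted p = 0.00865) for Ccnb2. For Ccna2, 12.5% of its exon length is shared with Exosc9 on the other strand, and for Ccnb2 a pseudogene, Ccnb2-ps, took at most 2.31 CPM.

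Bub1 and Bub1b encode kinases of the spindle checkpoint, and Aurka, Aurkb, and Plk1 kinases of mitosis. For Bub1, libraries 1 to 7 gave 17.0, 3.29, 19.0, 6.54, 0.295, 14.3, and 28.5 CPM and libraries 8 to 11 gave 100.8, 132, 88.9, and 68.8 CPM. Bub1 (chr2:127801122-127831865, minus strand) had the widest range of the 38 genes, 447-fold, from 4 counts in F361 to F318 LOV, and its change was 2.61 ± 0.68 (adjusted p = 0.00623). Bub1b had 30.8, 8.86, 35.8, 23.4, 1.33, 33.4, and 46.2 CPM in libraries 1 to 7 and 141, 159, 132, and 82.9 CPM in libraries 8 to 11. It changed by 1.98 ± 0.57 (adjusted p = 0.0109), with F361 again far below the other lines. Aurka stood at 24.9, 4.37, 21.6, 16.8, 8.84, 27.8, and 29.2 CPM in the first 7 libraries and at 85.1, 126, 113, and 82.4 CPM in the last 4. The level of Aurkb was 17.1, 5.63, 16.1, 9.61, 0.589, 12.5, and 22.8 CPM in libraries 1 to 7 and 76.7, 72.2, 106, and 49.4 CPM in 8 to 11. The Aurora kinases differed in the lowest line, the F326 splenic tumor for Aurka and F361 for Aurkb (8 counts), and changed by 2.07 ± 0.38 (adjusted p = 0.000803) and 2.31 ± 0.56 (adjusted p = 0.00422). For Plk1, libraries 1 to 7 gave 28.3, 6.08, 24.1, 16.3, 1.91, 22.8, and 38.8 CPM and libraries 8 to 11 gave 87.2, 108, 82.5, and 90.4 CPM. Its change was 1.90 ± 0.52 (adjusted p = 0.00842), and libraries 8 to 11 lay within 1.30-fold of each other.

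Kif11, Kif20a, Kif23, and Cenpe encode kinesins that separate the spindle poles, work in cytokinesis, or carry chromosomes. Kif11 had 27.6, 4.68, 32.8, 17.4, 1.18, 25.8, and 34.4 CPM in libraries 1 to 7 and 134, 113, 152, and 114 CPM in libraries 8 to 11. Kif11 rose by 2.30 ± 0.60 (adjusted p = 0.00599). Kif20a stood at 26.6, 8.29, 36.0, 13.2, 1.91, 45.3, and 50.7 CPM in the first 7 libraries and at 152, 102, 104, and 147 CPM in the last 4. Its change was 1.98 ± 0.58 (adjusted p = 0.0119), and 29.3% of its exon length is shared with Cdc23 on the other strand. The level of Kif23 was 21.0, 4.94, 18.0, 10.2, 1.91, 29.5, and 38.4 CPM in libraries 1 to 7 and 112, 106, 69.5, and 109 CPM in 8 to 11. F319 uterus lay below the other libraries of 8 to 11, and the change was 2.19 ± 0.55 (adjusted p = 0.00492). For Cenpe, libraries 1 to 7 gave 30.4, 6.77, 22.3, 8.28, 3.53, 28.1, and 43.3 CPM and libraries 8 to 11 gave 172, 136, 153, and 156 CPM. Cenpe rose by 2.61 ± 0.51 (adjusted p = 0.00109), with the last 4 libraries within 1.27-fold. Cenpf had 19.98, 2.40, 24.7, 12.6, 1.47, 15.6, and 45.6 CPM in libraries 1 to 7 and 79.6, 134, 99.7, and 86.8 CPM in libraries 8 to 11. The kinetochore gene Cenpf changed by 2.21 ± 0.64 (adjusted p = 0.0107). Cenpa stood at 22.4, 5.89, 26.6, 12.8, 8.69, 38.9, and 37.4 CPM in the first 7 libraries and at 88.8, 91.0, 89.8, and 119 CPM in the last 4. Cenpa, the histone H3 variant of centromeres, was lower in the F326 splenic tumor line than in F361, and its change was 1.84 ± 0.41 (adjusted p = 0.00254).

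Ndc80 and Nuf2 encode parts of the complex that ties kinetochores to microtubules. The level of Ndc80 was 7.61, 3.10, 9.11, 3.74, 1.47, 10.6, and 19.0 CPM in libraries 1 to 7 and 59.0, 75.0, 86.2, and 60.7 CPM in 8 to 11. For Nuf2, libraries 1 to 7 gave 8.12, 2.03, 11.96, 7.41, 1.03, 7.48, and 24.7 CPM and libraries 8 to 11 gave 58.3, 84.4, 60.9, and 69.4 CPM. Both rose, by 2.86 ± 0.48 (adjusted p = 0.000442) and 2.63 ± 0.57 (adjusted p = 0.00212), and Ndc80 had the largest change of the G2 and M phase genes. Tpx2 had 58.7, 16.9, 59.3, 40.3, 20.9, 76.7, and 101.2 CPM in libraries 1 to 7 and 319.4, 418, 264, and 234 CPM in libraries 8 to 11. Birc5 stood at 14.8, 4.18, 14.9, 7.48, 3.39, 12.4, and 23.7 CPM in the first 7 libraries and at 65.4, 50.5, 107, and 69.7 CPM in the last 4. Tpx2, which activates Aurora A at the spindle, changed by 2.20 ± 0.38 (adjusted p = 0.000529) and Birc5, which encodes survivin, by 2.33 ± 0.42 (adjusted p = 0.000732). The level of Cdc20 was 41.0, 9.24, 41.3, 20.4, 7.51, 60.0004, and 57.2 CPM in libraries 1 to 7 and 144, 204, 184, and 140.1 CPM in 8 to 11. For Ube2c, libraries 1 to 7 gave 48.5, 8.42, 47.1, 32.9, 10.9, 45.9, and 50.5 CPM and libraries 8 to 11 gave 131, 171, 151, and 115.2 CPM. These genes of the anaphase-promoting complex rose by 1.99 ± 0.46 (adjusted p = 0.00327) for Cdc20 and 1.67 ± 0.41 (adjusted p = 0.00460) for Ube2c. Of the exon length of Ube2c, 22.8% is shared with Tnnc2 on the other strand, a muscle fiber gene that had 0 to 4.24 CPM, while the fiber genes Tnni2 and Tnnt3 reached 5216 and 8167 CPM. The strand setting of the counting is not given in the sources used here, so reads of overlapping genes cannot be told apart.

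E2f1, Foxm1, and Mybl2 encode transcription factors that act in the cell cycle. E2f1 had 14.01, 9.30, 9.62, 10.7, 2.43, 23.3, and 29.5 CPM in libraries 1 to 7 and 55.5, 89.6, 41.7, and 60.6 CPM in libraries 8 to 11. E2f1 rose by 1.83 ± 0.44 (adjusted p = 0.00396), and F319 uterus was the lowest of libraries 8 to 11. Foxm1 stood at 37.0, 11.6, 41.1, 14.1, 1.62, 39.9, and 48.2 CPM in the first 7 libraries and at 111, 117, 107, and 153 CPM in the last 4. Foxm1 rose by 1.83 ± 0.58 (adjusted p = 0.0169), with F361 at 1.62 CPM. The level of Mybl2 was 13.95, 2.15, 11.6, 4.14, 1.18, 16.8, and 20.2 CPM in libraries 1 to 7 and 30.8, 67.7, 25.1, and 34.3 CPM in 8 to 11. The change of Mybl2, 1.67 ± 0.61 (adjusted p = 0.0319), had the highest adjusted p of the 38 genes, and the F319 uterus line at 25.1 CPM stood at 1.24 times the highest of libraries 1 to 7. Mybl2 was no longer called without F318 LOV (adjusted p = 0.112), without F326 ROV (0.0555), or without F333 uterus (0.0520), whereas leaving out any other single library kept all 38 genes called.

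Levels of different genes were compared after scaling to exon length. In libraries 8 to 11 the highest medians were 87.8 CPM per kb for Cdc20, 63.7 for Rrm2, 62.3 for Tpx2, and 61.8 for Pcna, and the lowest were 5.07 for Cdc6, 6.04 for Cenpf, and 7.03 for Mybl2. In libraries 1 to 7 the highest were 25.0 for Pcna, 21.96 for Cdc20, and 17.7 for Ube2c, and the lowest 0.736 for Cdc6, 1.01 for Cenpf, and 1.17 for Ndc80. Rrm2 ranked 21 of 38 in libraries 1 to 7 and 2 in libraries 8 to 11, so the order of genes differed between the ranges. Exon length here joins all exons annotated for a gene, so genes with long rare transcripts are set too low.

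Within libraries 8 to 11, the 2 uterus lines were compared with the 2 ovary lines, and none of the 38 genes passed the test. None was called by edgeR's quasi-likelihood test, which called 0% of the 15566 genes tested (522 at an unadjusted p under 0.05), and none of the 38 genes had an unadjusted p under 0.05. Of the 38, 13 were higher and 25 lower in the uterus lines, with a median log2 change of -0.10 and a range from -0.71 (Mybl2) to 1.02 (Rrm2, standard error 0.49). Without muscle fiber genes the median was -0.11, and leaving out 1 library at a time moved it to between -0.196 and 0.0093. The mean M level was 6.85 ± 0.08 (SD, n = 2) in the uterus lines and 6.97 ± 0.07 (SD, n = 2) in the ovary lines, with ranges that did not overlap. The mean S level was 7.03 ± 0.19 and 7.05 ± 0.10, with ranges that did. DESeq2 called 137 genes, none of the 38. In counts simulated for this design, the test found 11% of genes changed by 2 and 44% of genes changed by 3 on the log2 scale, so most differences of that size would be missed with 2 lines each.

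Within libraries 1 to 7, the splenic and peritoneal tumor lines were compared with the 5 ovary lines. All 38 genes had a lower estimate in the tumor lines, with a median log2 change of -2.25 (-1.90 over S phase genes, -2.43 over G2 and M phase genes, and -2.29 over regulators), against 0.02 over all genes tested. edgeR's quasi-likelihood test called none of the 38, and 0% of the 16299 genes tested, although 37 of the 38 and 1636 of all genes had an unadjusted p under 0.05. The adjusted p ran from 0.155 (Ccnb2, with -2.43 ± 0.31, and Ube2c, with -2.08 ± 0.28) to 0.522 (Pcna, with -0.61 ± 0.30). In counts simulated for this design the test found 43% of genes changed by 2 and 81% of genes changed by 3 on the log2 scale. The largest estimates were those of Cenpf (-3.43 ± 0.57), Kif11 (-3.08 ± 0.58), and Bub1 (-3.07 ± 0.90). In 36 of the 38 genes both tumor lines lay below all 5 ovary lines, against 12.7% of all genes tested, the exceptions being Pcna and Tyms, for which F326 ROV lay below the splenic tumor line. DESeq2 called 33 of the 38 genes lower, of 332 genes called lower among 26042. By contrast, 1 edgeR fit over all 11 libraries called 2, Ccnb2 (adjusted p = 0.0428) and Ube2c (adjusted p = 0.0374). That fit called 9 genes lower among 17317 (0.052%). Among genes outside the list, 22 of 43 other S phase and 55 of 60 other G2 and M phase genes had an unadjusted p under 0.05, all lower in the tumor lines, and none was called. The S level was 3.27 ± 0.44 (SD, n = 2) in the tumor lines and 5.02 ± 0.47 (SD, n = 5) in the ovary lines, the M level 2.43 ± 0.55 and 4.75 ± 0.50, and the S level minus the M level 0.84 ± 0.12 and 0.27 ± 0.11. F326 ROV, from the same mouse as the splenic tumor line, was the lowest of the ovary lines in both levels. The tumor lines had 13.8% and 16.6% of counts on muscle fiber genes and the ovary lines 8.92% to 15.9%, and leaving those genes out of the fit kept the median change at -2.25. Y-linked genes summed to 173.8 and 169.8 CPM in the tumor lines and 127.8 to 161.8 CPM in the ovary lines. Epithelial markers summed to 9.81 and 9.43 CPM against 13.8 to 241 CPM, with Wt1 at 0.127 and 0 against 4.57 to 72.7 CPM. Blood markers overlapped, at 124 and 73.3 CPM against 54.0 to 95.1 CPM. The part of these differences in the change was not tested.

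**Figure D4:**
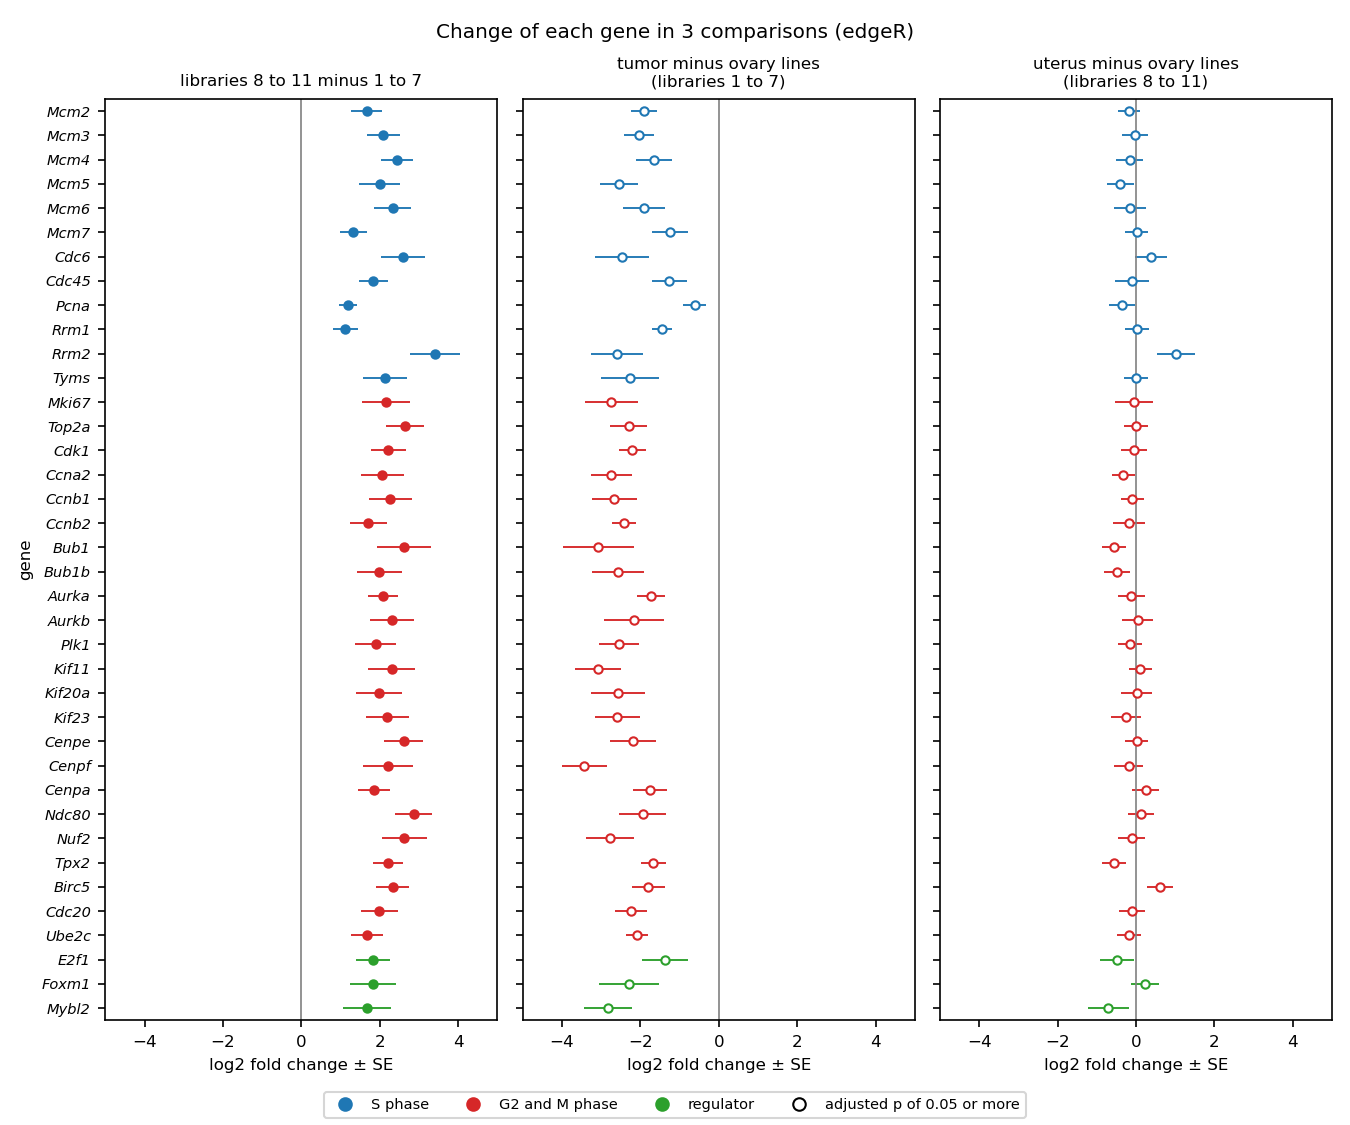
log2 fold change (points) ± standard error (bars) of the 38 genes by edgeR in 3 comparisons: libraries 8 to 11 against 1 to 7, tumor against ovary lines in libraries 1 to 7, and uterus against ovary lines in libraries 8 to 11. Filled points have an adjusted p under 0.05. All points of the first panel are filled and lie to the right of 0, those of the second panel lie to the left and are open, and those of the third panel lie on both sides of 0 and are open.

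Restricting the comparison of library ranges to ovary lines, 2 of libraries 8 to 11 against 5 of 1 to 7, left all 38 genes called higher, with a median log2 change of 1.79, where 18.6% of the 16610 genes tested were called higher. The S level differed by 2.03 and the M level by 2.22. Leaving out muscle fiber genes before scaling also left 38 called, with a median of 2.11, against 28.6% of 15941 genes. That fit drops the listed fiber genes only, so it cannot show what other RNA from muscle does to the change. Without both F326 lines and F361, which held the lowest levels of these genes and served the study as its copy-number controls, 38 genes were called with a median log2 change of 1.59, against 23.8% of 15677 genes. That choice was made after the data were seen. The S level then differed by 1.82 and the M level by 1.96 between the library ranges.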

How the data were processed

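PolyA RNA of 11 OvTrpMyc cell lines was sequenced as 150-base read pairs from strand-specific libraries. The authors aligned the reads to GRCm38 with STAR, removed duplicates with SAMtools RmDup, and counted reads on genes with featureCounts. Versions and the strand setting are not given in the sources used here. The deposited values are raw counts per gene, without normalization, and totals per library ranged from 13580525 to 27044598. Titles of the samples gave the groups, and their descriptions the library numbers.

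The genes, the other gene lists, the library ranges, and the tests were chosen with earlier results of these data known, and the muscle fiber list comes from such an earlier look. CPM is the count divided by the library total and scaled to 1000000, and levels are means of log2(CPM + 1). The S level was planned over 14 genes and holds the 12 in the table. Differential expression was tested over the whole table with edgeR 4.0.16 (R 4.3.3) by the quasi-likelihood test, with TMM scaling, filterByExpr, and a Benjamini-Hochberg adjusted p under 0.05, and DESeq2 1.42.0 was an alternative. p-values measure the spread between lines, and lines of the same mouse enter as separate samples unless the mouse was a block. In counts simulated for libraries 8 to 11 against 1 to 7, 77% of genes changed by 2 and 91% of genes changed by 3 on the log2 scale were found, with 10 false calls among 15627 genes. Each simulation changed 100 genes by each size, drawn from genes with higher counts. The real comparison of library ranges called 9337 genes, so its share found can differ from the simulated one. Gene positions and exon lengths are those of GENCODE M21 (GRCm38), and promoters those of RefSeq (GRCm38.p6), which matched 32 of the 38 genes. All 38 genes are named, each with its value in every library. Mutant alleles and pathway annotation were not analysed here.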

Additional observations from a re-analysis of the deposited data

Results flagged for a closer look

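Of 82 checks for a single library apart from its group, 2 passed Dixon's 95% critical value, and chance alone passes about 1 group in 20. Both were among libraries 8 to 11. For Kif23, a kinesin gene of cytokinesis, the gap from F319 uterus to the next library took 0.872 of the range of the 4 values, with F319 uterus at 6.14 on the log2(CPM + 1) scale and the median at 6.76. For Cenpa, the histone variant of centromeres, the gap took 0.913 of the range, with F333 uterus at 6.91 and the median at 6.51.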

How the results depend on the processing

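Library ranges: with the mouse as a block, 20 of the 38 genes were called in place of 38, and genes called over the whole table fell to 3028 from 9337. The cause was not tested. Under DESeq2, library totals, upper-quartile factors, no filter on low counts, no muscle fiber genes, ovary lines only, or (chosen after seeing the data) without both F326 lines and F361, 38 were called, of 10862, 9814, 9243, 9579, 9320, 6757, and 7645 genes called in either direction over the whole table. Leaving out 1 library at a time gave 37 to 38, of 8526 to 9311. Tumor against ovary lines in libraries 1 to 7: DESeq2 called 33 genes and 1 fit over all 11 libraries 2, against 0, and leaving out 1 library gave 0 to 0. Without a tumor line the spread came from the ovary lines alone. DESeq2 called 346 genes of the whole table, the 1 fit 9, and the fit without F318 ROV 1, against 0. Uterus against ovary lines in libraries 8 to 11: 0 of the 38 genes were called under every alternative run, leaving out 1 library included (0 to 0), while over the whole table DESeq2 called 137, no filter on low counts 604, and 1 fit over all 11 libraries 1, against 0. Without 1 of these libraries, the lone line of its group was assumed to vary like the pair in the other. In both comparisons no gene was called with all lines, so the counts of 0 after leaving out 1 say nothing about stability.

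Leaving out 1 library at a time moved the difference between library ranges to 2.26 to 2.68 for the S level, 2.48 to 3.04 for the M level, and -0.36 to -0.22 for the S level minus the M level. The last was -0.61 with the 43 other S phase and 60 other G2 and M phase genes in place of the 38, also chosen after seeing the data. The other alternatives kept the direction of the 3 differences and moved them by less than 1 SD. For the S level minus the M level they ranged from -0.54 with summed CPM to -0.15 without both F326 lines and F361. No paired analysis by replicate number was possible because the labels carry no replicate numbers, and the mouse block stands in for it. Counts as low as 4 limited Cdc6 and Bub1 in F361.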

Other observations

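Myc, whose product the engineered allele expresses, lay at 6.92 CPM in F361, 22.2 in the F326 splenic tumor line, 31.8 in F326 ROV, 50.2 in F364 LOV, 53.3 in F364 ROV, 55.3 in F319 ROV, and 93.6 in F318 ROV. In libraries 8 to 11 it lay at 153 CPM in F333 uterus, 184 in F339 ROV, 280.1 in F318 LOV, and 291 in F319 uterus. The 3 lowest lines and the highest line of libraries 1 to 7 were the same for Myc and for the mean level of the 38 genes, and no library of 1 to 7 reached libraries 8 to 11 in either. Counts of Myc do not separate the engineered copy from the endogenous gene. The study describes F361 as not expressing the mutant p53 copy, which the engineered allele joins to Myc, and alleles were not analysed here. The libraries share the differences in muscle fiber, blood, and Y-linked RNA given above, and the relation was not tested.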
